A study of Mus musculus with 11 samples.

Results

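The 7 genes described here, Jun, Fosb, Atf3, Nr4a1, Ier3, Btg2 and Nfkbia, are immediate early response genes of the Nanostring Myeloid Innate Immunity panel, which counts transcripts with barcoded probes and no amplification. They were named as a list and chosen from measured values of these same 11 mice, in which they stood out between groups, so their levels are given as a description and no test of their differences is read. They are 7 of the 754 genes in the table, and all 7 are among the 445 genes whose mean over the mice passed 30 normalized counts, which are counts scaled to housekeeping genes. Before deposit, low values had been replaced by 30, called the floor here. That filter can be passed through a single high group, and 6 of the 7 were above the floor of the table in every mouse, against 303 of the 754 genes. The remaining gene, Fosb, was at the floor in 7 of the 11 mice.

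The cells were peritoneal macrophages, sorted as CD11b+F4/80+ from female C57BL/6 mice aged 6 to 8 weeks, 1 sample per mouse. Rα+/+ mice carry the normal Retnla gene, which encodes RELMα, a small secreted protein of type 2 immunity. In RαTd/Td mice both copies of Retnla are replaced by the TdTomato reporter, constitutively and in every tissue, so a change in the macrophages may arise in them or in other cells. Mice received PBS or IL-4c, a complex of IL-4 with the anti-IL-4 antibody 11B11 that prolongs the life of the cytokine, in the peritoneum on days 0 and 2, and cells were taken on day 4. There were 2 PBS Rα+/+ mice (mice 1 and 2), 2 PBS RαTd/Td mice (mice 3 and 4), 3 IL-4c Rα+/+ mice (mice 5, 6 and 7) and 4 IL-4c RαTd/Td mice (mice 9 to 12). Retnla followed the labels: it was between 4141 and 4631 normalized counts in PBS Rα+/+ mice, between 115675 and 171588 in IL-4c Rα+/+ mice, and at the floor of 30 in all 6 RαTd/Td mice.

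Immediate early genes are transcribed within minutes of a stimulus, such as a growth factor, a cytokine, stress or the handling of cells, because the factors that switch them on are already present in the resting cell and need only be phosphorylated or released. Their transcripts are short-lived, so their level follows recent signalling. Jun and Fosb are subunits of the dimeric AP-1 transcription factor, which binds the motif TGANTCA, and Atf3 is a related basic leucine zipper factor of the ATF/CREB family that is best known as a stress-induced repressor. Nr4a1 (Nur77) is an orphan nuclear receptor that restrains inflammatory gene expression in macrophages. Ier3 is a stress-response protein that modulates survival and ERK signalling, and Btg2 is an antiproliferative co-regulator that promotes the removal of poly(A) tails from mRNA. Nfkbia encodes IκBα, which holds NF-κB in the cytoplasm and is itself an NF-κB target.

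In the GRCm38.p6 assembly of RefSeq, Btg2 is at chr1:134074865-134079155, Atf3 at chr1:191170296-191183333, Jun at chr4:95049036-95052222, Fosb at chr7:19302696-19310118, Nfkbia at chr12:55489409-55492647, Nr4a1 at chr15:101253902-101274795 and Ier3 at chr17:35821713-35822911. All 7 matched 1 promoter of the RefSeq table. The 250 bases before the annotated start are shown for 3 of the 6 genes that moved together and for Nfkbia, which did not move with them. All 4 lie on the minus strand and are printed 5′ to 3′ in the direction of transcription, with the cyclic AMP response element motif TGACNTCA, its core TGACG (or CGTCA on the other strand) and the κB site in capitals. They span chr4:95052223-95052472 for Jun, chr1:191183334-191183583 for Atf3, chr1:134079156-134079405 for Btg2 and chr12:55492648-55492897 for Nfkbia.
Jun: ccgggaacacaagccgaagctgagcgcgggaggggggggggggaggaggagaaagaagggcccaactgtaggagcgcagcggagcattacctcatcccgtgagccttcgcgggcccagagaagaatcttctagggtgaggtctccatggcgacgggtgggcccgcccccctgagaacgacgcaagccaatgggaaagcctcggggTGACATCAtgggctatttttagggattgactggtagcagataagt
Atf3: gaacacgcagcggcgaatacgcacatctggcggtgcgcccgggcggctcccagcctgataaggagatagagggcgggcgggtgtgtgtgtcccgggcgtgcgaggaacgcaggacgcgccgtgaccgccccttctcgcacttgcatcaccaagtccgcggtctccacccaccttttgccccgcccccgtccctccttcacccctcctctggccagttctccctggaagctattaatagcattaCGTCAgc
Btg2: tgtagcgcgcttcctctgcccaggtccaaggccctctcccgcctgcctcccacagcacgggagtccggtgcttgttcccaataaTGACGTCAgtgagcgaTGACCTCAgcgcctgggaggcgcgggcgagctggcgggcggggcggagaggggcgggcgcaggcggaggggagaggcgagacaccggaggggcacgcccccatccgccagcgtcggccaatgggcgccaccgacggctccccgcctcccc
Nfkbia: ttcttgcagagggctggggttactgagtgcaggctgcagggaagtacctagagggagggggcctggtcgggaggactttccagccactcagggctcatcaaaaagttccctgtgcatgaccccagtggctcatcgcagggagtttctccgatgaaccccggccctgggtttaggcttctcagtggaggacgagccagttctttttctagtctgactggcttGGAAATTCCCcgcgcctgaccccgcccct

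The Jun promoter holds TGACATCA with its first base at -45 from the start. Btg2 holds TGACGTCA and TGACCTCA, which begin at -166 and -150, and Atf3 holds CGTCA at -7. Nfkbia holds none of these and has a κB site, GGAAATTCCC, at -29. Both strands were searched over the full window of 250 bases before to 50 bases after each start. TGACNTCA was found in 2 of the 7 genes and in 8.83% of all 32851 promoters of the table. The core TGACG, which overlaps some forms of TGACNTCA, was found in 4 of the 7 genes, namely Fosb, Atf3, Nr4a1 and Btg2, and in 20.81% of all promoters. A κB site was found in 4 of the 7, namely Fosb, Nr4a1, Ier3 and Nfkbia, and in 4.51% of all promoters and 10.32% of those of the 407 tested panel genes that could be matched. Jun, Atf3 and Btg2, the genes printed beside Nfkbia, held no κB site, and Ier3 held neither TGACG nor TGACNTCA. The printed sequences therefore do not set Nfkbia apart from all the other genes. The GC box GGGCGG was found in all 7 and in 35.66% of all promoters, whereas the AP-1 motif TGANTCA, in 7.81% of all promoters, and the STAT palindrome, TTC and GAA with 4 bases between them, in 6.95%, were found in none of the 7. For the 407 panel genes the shares were 52.58% for GGGCGG, 28.75% for TGACG and 9.09% for TGACNTCA. They were 6.88% for TGANTCA and 5.41% for the STAT palindrome. These are matches of letters in a fixed window, not measured binding.

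The defining markers of the sorted cells were present. Of the 9 macrophage markers on the panel, 8 were above the floor, among them Adgre1 (F4/80) and Itgam (CD11b), and their summed level was between 24426 and 30885 normalized counts in every mouse. All 6 eosinophil markers on the panel, including Siglecf and Epx, and both T cell markers were at the floor in every mouse. Of the 10 neutrophil or monocyte markers on the panel, 5 (S100a8, S100a9, Csf3r, Ly6c1 and Ccr2) were detected and the defining genes Ly6g, Mpo, Elane, Cxcr2 and Camp were at the floor. The sum of those 5 was 768 to 938 in the 4 PBS mice and 183 to 657 in the 7 IL-4c mice, so it moved with treatment as the 7 genes did. The sum of the 5 large peritoneal macrophage markers also moved with treatment, from between 16562 and 21525 (PBS) to between 6286 and 10631 (IL-4c). Most of that sum was Alox15, with group means of 11335 and 11426 normalized counts in the PBS groups and 5717 and 5922 in the IL-4c groups. Timd4 also fell, from means of 3268 and 4377 to 1147 and 1441, and Selp from 2014 and 2247 to 995 and 1138. Cxcl13 fell from 1818 and 1345 to 30, the floor, and 248. Gata6, the transcription factor that defines these cells, was the exception among the 5. Its means were 608 and 639 after PBS and 599 and 611 after IL-4c. Of 3 B cell markers on the panel, Ms4a1 and Btk were detected and Fcer2a was at the floor, and their sum was 450 to 593 in PBS and 367 to 441 in IL-4c mice. Ms4a1 (CD20), the B cell surface protein, had means of 165 and 217 in the PBS groups and was at the floor in all 3 IL-4c Rα+/+ mice and in 3 of the 4 IL-4c RαTd/Td mice. The part of these shifts in the results below was not tested. In a bulk sample of sorted cells, fewer cells that express a gene and less RNA per cell cannot be told apart.

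In all, 6 of the 7 genes shared 1 order of group means, with PBS RαTd/Td mice highest, PBS Rα+/+ mice next and both IL-4c groups lowest. In PBS mice these 6 genes were higher without RELMα by 1.51-fold (Ier3) to 2.21-fold (Jun), and after IL-4c the fitted difference between the genotypes was at most 0.14 on the log2 scale in either direction. Nfkbia followed a different order: its PBS groups overlapped, and its mean was lower in IL-4c RαTd/Td mice and lowest in IL-4c Rα+/+ mice.

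**Figure D1:**
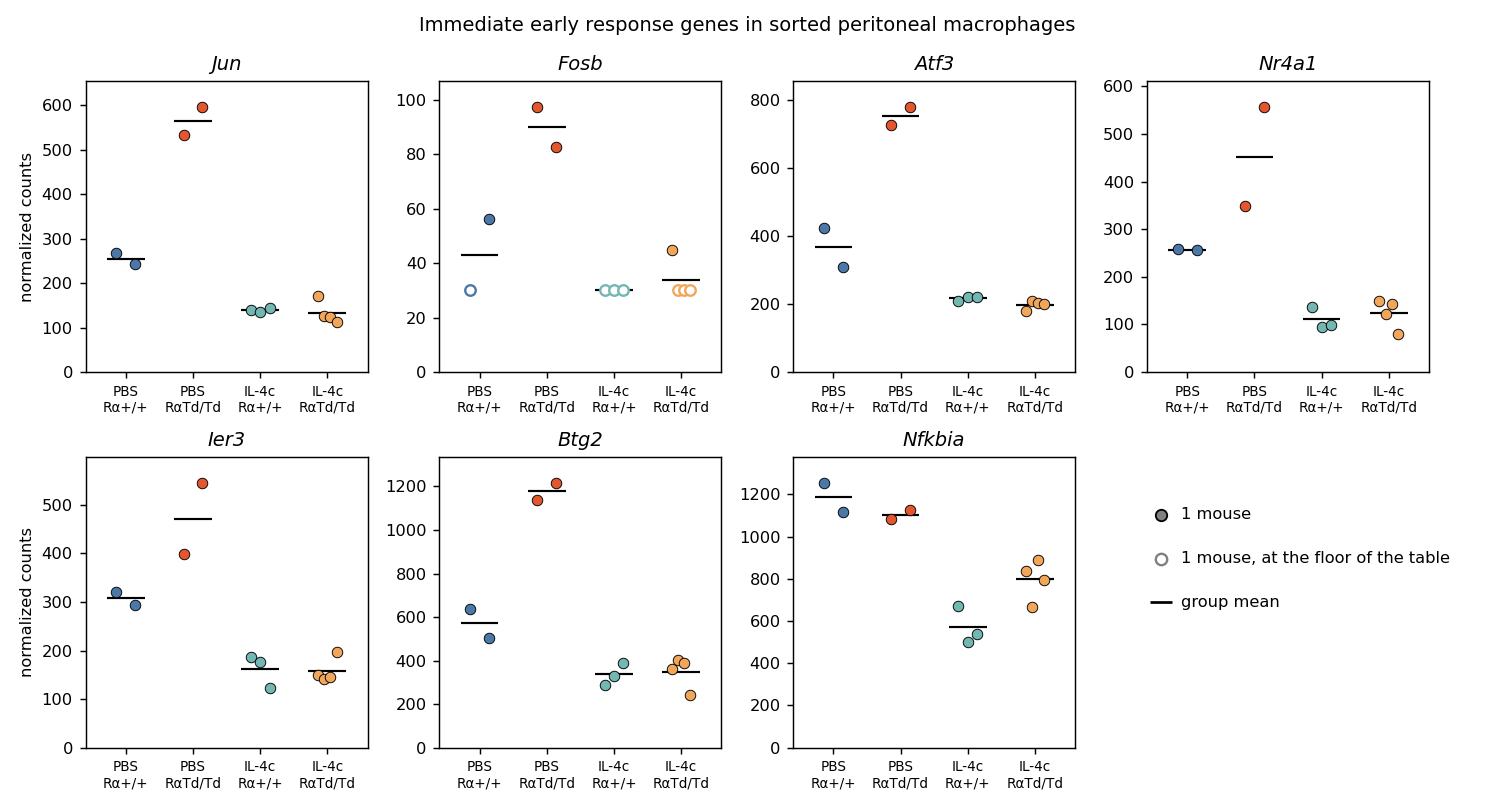
Normalized counts of the 7 genes (vertical axis, linear and starting at 0) in each of the 11 mice, by treatment and genotype. Filled points are mice, open points are mice at the floor of 30, and lines are group means. In PBS RαTd/Td mice (n = 2) Jun, Fosb, Atf3, Nr4a1, Ier3 and Btg2 lie above all other mice, whereas Nfkbia does not.

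Jun was measured at 267 and 243 normalized counts in PBS Rα+/+ mice and at 533 and 595 in PBS RαTd/Td mice. After IL-4c it was 139, 136 and 144 in Rα+/+ mice and 170, 127, 124 and 114 in RαTd/Td mice. The genotypes were therefore apart in PBS mice and interleaved after IL-4c, and every IL-4c mouse was below every PBS mouse. The fitted difference between IL-4c and PBS, in log2 of normalized counts plus 1 as for all fitted differences and folds here, was -0.86 ± 0.16 (SE) in Rα+/+ mice and -2.08 ± 0.15 in RαTd/Td mice. The genotype difference was 1.14 ± 0.18 after PBS and -0.08 ± 0.14 after IL-4c. The means were 255 ± 16.9 (SD, n = 2) and 564 ± 44.4 (SD, n = 2) in the PBS groups and 139 ± 4.06 (SD, n = 3) and 134 ± 25.1 (SD, n = 4) in the IL-4c groups, in the same order of genotypes.

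Fosb, the AP-1 partner of Jun on this list, was the one gene limited by the floor. It was 97.2 and 82.6 normalized counts in PBS RαTd/Td mice, at the floor and 56.2 in PBS Rα+/+ mice, at the floor in all 3 IL-4c Rα+/+ mice, and 44.8 in 1 and at the floor in 3 of the IL-4c RαTd/Td mice. Both PBS RαTd/Td mice were above every other mouse. In mouse 1, the PBS Rα+/+ mouse at the floor, the lowest measured value of any gene was 48.2, so its Fosb level can lie anywhere below that. The fitted difference between the PBS genotypes, 1.11 ± 0.28 in log2 terms, rests on that floor and was 0.66 when the same floor of 56.3 was set in all mice.

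Atf3 was measured at 424 and 309 normalized counts in PBS Rα+/+ mice and at 727 and 777 in PBS RαTd/Td mice. After IL-4c it was 210, 220 and 222 in Rα+/+ mice and 179, 209, 202 and 201 in RαTd/Td mice. Atf3 was the tightest of the 7 genes within groups, with a residual SD of 0.14 on the log2 scale against a median of 0.21 over the 445 genes. The log2 difference between IL-4c and PBS was -0.74 ± 0.14 in Rα+/+ mice and -1.93 ± 0.13 in RαTd/Td mice. After IL-4c all 4 RαTd/Td mice were below all 3 Rα+/+ mice, but the nearest values were 208.75 and 209.53, and the difference of -0.14 ± 0.12 was near its own error.

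Nr4a1 was measured at 259 and 256 normalized counts in PBS Rα+/+ mice and at 349 and 556 in PBS RαTd/Td mice. After IL-4c it was 137, 94.6 and 99.8 in Rα+/+ mice and 149, 122, 142 and 79.2 in RαTd/Td mice. This nuclear receptor gene had the widest spread of the 7, with a residual SD of 0.36 on the log2 scale, and the PBS RαTd/Td mice lay further from each other than the lower of them lay from the PBS Rα+/+ mice. The log2 difference between genotypes was 0.77 ± 0.32 after PBS and 0.13 ± 0.25 after IL-4c. IL-4c differed from PBS by -1.23 ± 0.29 in Rα+/+ and by -1.87 ± 0.28 in RαTd/Td mice.

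Ier3 was measured at 320 and 295 normalized counts in PBS Rα+/+ mice and at 398 and 545 in PBS RαTd/Td mice. After IL-4c it was 187, 177 and 123 in Rα+/+ mice and 149, 141, 147 and 196 in RαTd/Td mice. The groups were ordered as for Jun, with the smallest gap between the PBS genotypes of the 6 genes, 0.60 ± 0.24 on the log2 scale. IL-4c differed from PBS by -0.94 ± 0.22 in Rα+/+ mice and by -1.56 ± 0.21 in RαTd/Td mice.

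Btg2 was measured at 637 and 505 normalized counts in PBS Rα+/+ mice and at 1140 and 1215 in PBS RαTd/Td mice. After IL-4c it was 290, 331 and 390 in Rα+/+ mice and 363, 401, 387 and 242 in RαTd/Td mice. The PBS RαTd/Td mice were 2.07-fold above the PBS Rα+/+ mice, close to the 2.21-fold of Jun and the 2.07-fold of Atf3, while the IL-4c groups overlapped. IL-4c differed from PBS by -0.76 ± 0.22 in Rα+/+ mice and by -1.78 ± 0.21 in RαTd/Td mice on the log2 scale.

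Nfkbia was measured at 1253 and 1117 normalized counts in PBS Rα+/+ mice and at 1082 and 1125 in PBS RαTd/Td mice. After IL-4c it was 672, 500 and 537 in Rα+/+ mice and 837, 668, 888 and 796 in RαTd/Td mice. The PBS genotypes overlapped, and after IL-4c they touched at a single pair of mice, 672 in an Rα+/+ mouse and 668 in an RαTd/Td mouse. The log2 difference between IL-4c and PBS was -1.06 ± 0.16 in Rα+/+ mice and -0.48 ± 0.15 in RαTd/Td mice. The difference between those responses, 0.59 ± 0.22, was opposite in sign to that of the other 6 genes.

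**Figure D2:**
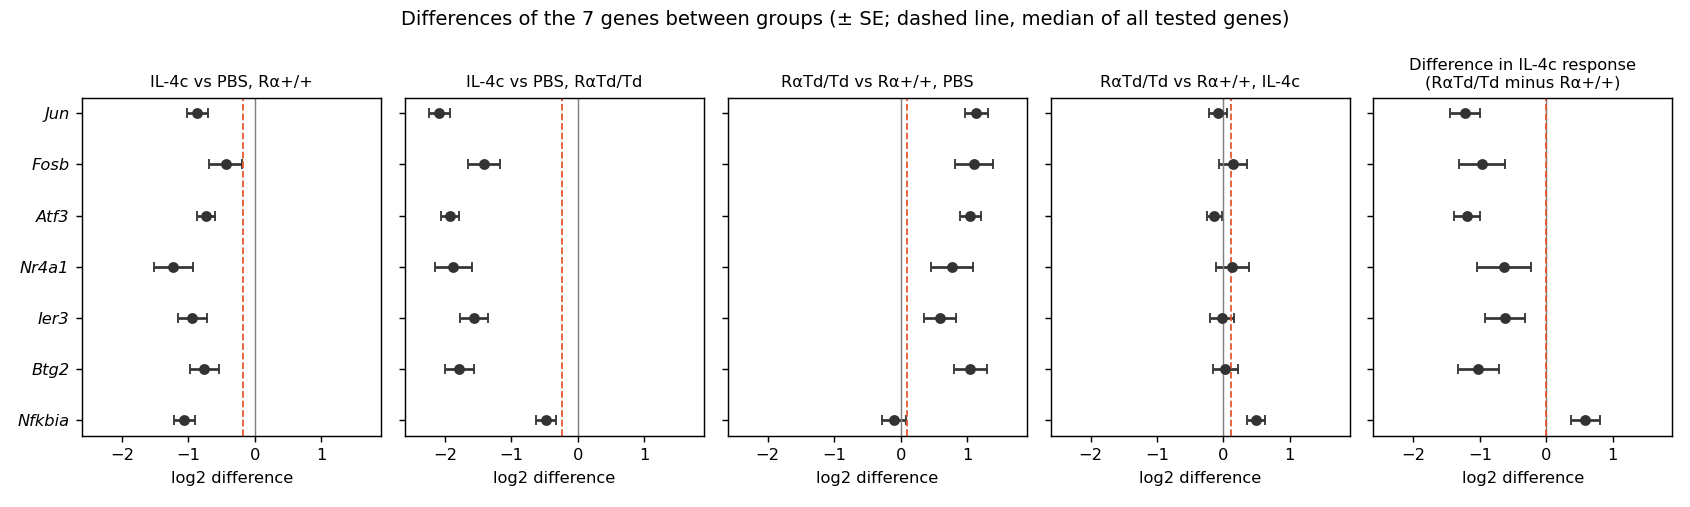
Fitted log2 differences of the 7 genes (horizontal axis, log2 of normalized counts plus 1) in the 5 comparisons, with SE as error bars from limma over 11 mice. The dashed line is the median of the 445 genes tested. The 6 genes other than Nfkbia lie to the right in the PBS genotype panel, between 0.60 and 1.14, and near 0 in the IL-4c genotype panel.

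The first question was how IL-4c alters these transcripts in wild-type macrophages. The median log2 difference of the 7 genes was -0.86, against -0.18 for all 445 genes. Genes are called here at a limma adjusted p of 0.05 or less, with Benjamini-Hochberg adjustment over the 445 genes. Of the 7 genes 6 were called lower and none higher, all but Fosb, where 32.4% of the genes tested were called lower and 13.9% higher. The groups did not overlap for the same 6 genes, as for 42.9% of genes in that direction. These counts describe genes that were chosen from these values. The Btg2 call was lost when each mouse was centred on its median gene, which moved every log2 difference by 0.30 and left Btg2 at -0.46, and it was also lost without mouse 5. Over all 445 genes, centring turned 144 lower and 62 higher calls into 92 lower and 106 higher, so relative to the median gene fewer genes were lower. Without mouse 1 the calls of Nr4a1, Ier3 and Btg2 were lost and Fosb was called, at -0.88.

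In RαTd/Td macrophages the fitted difference between IL-4c and PBS was further from 0 for 6 of the 7. The median was -1.78, against -0.23 for all genes, and Jun at -2.08 was 4.24-fold lower after IL-4c. All 7 were called lower and none higher by limma, where 36.6% of genes were called lower and 15.3% higher. All 7 had groups without overlap, as had 43.6% of genes in that direction. Nfkbia, at 1.39-fold lower, lost its call after centring (log2 difference -0.22, where all values moved by 0.26 and 163 lower and 68 higher calls became 110 and 104) and without mouse 3 or mouse 4.

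**Figure D3:**
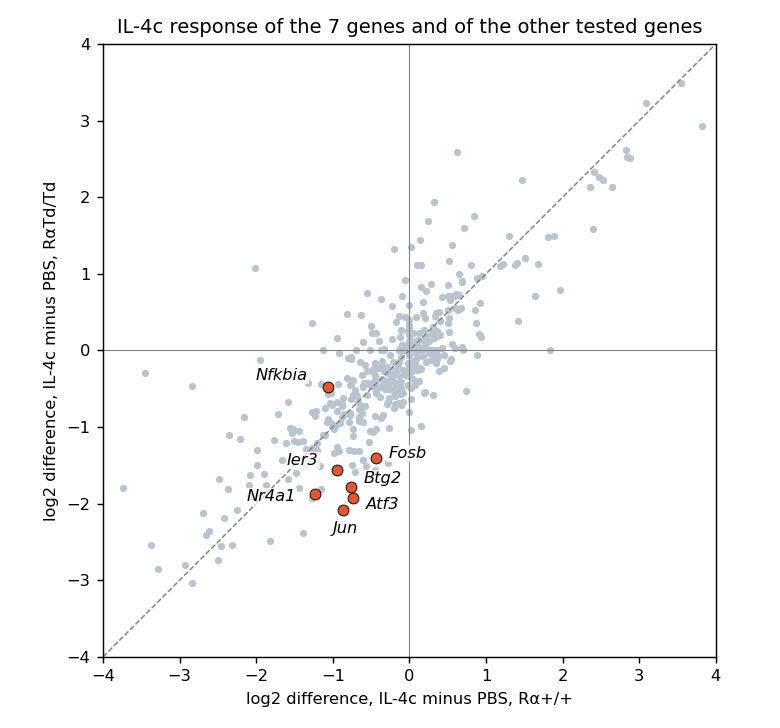
Log2 difference between IL-4c and PBS in Rα+/+ mice (horizontal) and in RαTd/Td mice (vertical) for 437 of the 445 tested genes; 8 others lie outside the axes. The dashed line marks equal responses. Orange points are the 7 genes, of which all but Nfkbia lie below the line.

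The genotype comparison in PBS mice asked what loss of RELMα changes at steady state. The median log2 difference of the 7 genes was 1.05, against 0.10 for all 445. Called higher by limma were 4 of the 7, Jun, Fosb, Atf3 and Btg2, and none was called lower, where 8.09% of genes were called higher and 1.57% lower. The groups did not overlap for 6 of the 7, all but Nfkbia, as for 35.5% of genes in that direction. With 2 mice per group the limma count of 4 rested on single mice, and it was kept only without mouse 9. It was 2 without mouse 5, 6 or 10, with Jun and Atf3 still called. Without mouse 7, 11 or 12 only Fosb lost its call. The calls were lost without mouse 4, and some were lost without mouse 1, 2 or 3, fits that leave a single mouse in a PBS group. The lowest log2 differences with any 1 mouse left out were 1.06 for Jun, 0.66 for Fosb, 0.82 for Atf3 and 0.89 for Btg2. The PBS RαTd/Td mice also had the lowest totals of the series, 268858 and 280396 counts, and the highest normalization factors, 1.87 and 1.88, whereas those of the PBS Rα+/+ mice were 1.61 and 0.75. Within the PBS Rα+/+ pair mouse 1, with the higher factor, was above mouse 2 in all 6 genes that were above the floor in every mouse, and below it in Fosb. The part of depth in the difference was not tested. Centring moved all values by -0.15, left Jun and Atf3 called, at 1.00 and 0.91, and turned 36 higher and 7 lower calls of all genes into 16 and 10.

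After IL-4c none of the 7 genes was called in either direction between genotypes, where 1.57% of genes were called higher and 1.12% lower in RαTd/Td mice. At an unadjusted limma p of 0.05, 1 of the 7 passed, Nfkbia, with a log2 difference of 0.49 ± 0.13, beside 97 of all 445 genes. For Jun, Fosb, Nr4a1, Ier3 and Btg2 the genotypes overlapped, and the differences were between -0.08 and 0.14, or between -0.26 and -0.05 after centring, which moved all values by -0.19 and so turned the sign of Fosb, Nr4a1 and Btg2. Over all genes 7 higher and 5 lower calls became 3 and 5. The median of the 7 was 0.03, against 0.12 for all genes.

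The last comparison, the IL-4c response of RαTd/Td mice minus that of Rα+/+ mice, combines the 4 groups and shares the PBS mice with the steady-state comparison. The median of the 7 genes was -0.96, against -0.00 for all 445 genes. Called lower by limma were Jun, at -1.22 ± 0.22, and Atf3, at -1.19 ± 0.19, that is 2 of the 7, and none was called higher, where 1.35% of genes were called lower and 0.674% higher. Btg2 was at -1.02 ± 0.31, Fosb at -0.96 ± 0.35, Nr4a1 at -0.64 ± 0.41 and Ier3 at -0.62 ± 0.30. The count was 0 without mouse 4 or mouse 6, and 1 (Atf3) without mouse 2, 5, 7 or 10 or after centring.

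Across the 11 mice, the 6 genes above the floor everywhere had a median Pearson r of 0.90 over their 15 pairs, with a range of 0.66 to 0.97. These points share treatment and genotype. After each group's mean was removed, the median over the same pairs was 0.12, with a range of -0.65 to 0.62 and 9 of the 15 above 0, so mice that were high in 1 of the genes within a group were not regularly high in the others. In mouse 12, for example, Nr4a1 and Btg2 were the lowest of the IL-4c RαTd/Td group, at 79.2 and 242 normalized counts, while Ier3 was the highest, at 196.

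**Figure D4:**
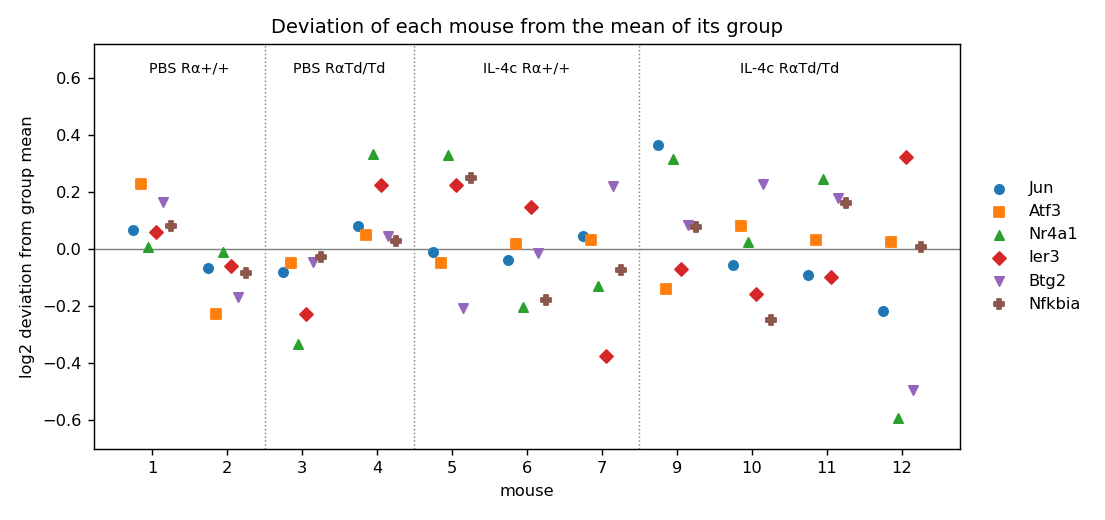
Deviation of each of the 11 mice from the mean of its group (vertical axis, log2) for the 6 genes above the floor in every mouse. Mouse 12 holds both the lowest values of Nr4a1 and Btg2 and the highest value of Ier3 in its group. In groups of 2 mice the deviations mirror each other.

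The genes whose log2 pattern over the 11 mice was most like each of the 7 were drawn from the 297 other genes above the floor in every mouse and are given as a description with no test. For Btg2 the closest were Irf2 (Pearson r = 0.99) and C4a (r = 0.98), and for Ier3 Rin2 (r = 0.97) and Mapk14 (r = 0.95). Atf3 was closest to Peli1 (r = 0.96) and Cd86 (r = 0.95), and Jun to C4a and Nfatc1 (r = 0.94 for both). Nr4a1 was closest to C4a (r = 0.95) and Selp (r = 0.94), and Fosb to Socs3 (r = 0.93) and Nfatc1 (r = 0.89). Nfkbia had other neighbours, Alox5ap (r = 0.95) and Cd38 (r = 0.94). C4a, a complement component, was thus among the closest pair for 3 of the 7 genes. These r values include the differences between treatments and genotypes, which many genes share. With group means removed, other genes came closest to the mean deviation of the 6 genes above the floor everywhere. They were Sf3a3 (r = 0.86), Hprt (r = 0.84), Zfp148 (r = 0.80), Polr2a (r = 0.78) and Pycard (r = 0.76), and none of them is a neighbour named above.

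Other immediate early genes of the panel were taken from a general list of 38, of which 17 were on the panel and 9 were tested. They did not move as 1 group. In Rα+/+ mice 2 of the 9 rose after IL-4c and 2 fell, where 13.9% of all genes were called higher and 32.4% lower. Klf4, a zinc finger factor of alternatively activated macrophages, rose by 1.64 ± 0.34 on the log2 scale (limma adjusted p = 0.00375), and Id2, an inhibitor of basic helix-loop-helix factors, rose by 0.91 ± 0.16 (limma adjusted p = 0.00155). Myc, the growth regulator, fell by 0.88 ± 0.19 (limma adjusted p = 0.00444), and Id1, an inhibitor like Id2, was called lower (limma adjusted p = 0.00489) but was at the floor in all 3 IL-4c Rα+/+ mice. With 1 floor in all mice the Id1 difference in Rα+/+ mice was 0.00, and after centring the calls of both Myc, at -0.58, and Id1, at -0.31, were lost.

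In RαTd/Td mice 5 of the 9 fell after IL-4c and none rose, where 36.6% of all genes were called lower. Socs3, an inhibitor of cytokine receptor signalling, fell by 1.02 ± 0.21 on the log2 scale (limma adjusted p = 0.0029), from between 214 and 234 normalized counts to between 92.0 and 144. Plaur, the urokinase receptor, fell by 0.69 ± 0.13 (limma adjusted p = 0.00168), Myc by 0.73 ± 0.18 (limma adjusted p = 0.00835) and Klf10 by 0.56 ± 0.12 (limma adjusted p = 0.00409). Id1 was between 72.9 and 97.7 in PBS RαTd/Td mice and at or near the floor after IL-4c (limma adjusted p = 2.15e-05). The calls of Klf10 and Myc were lost after centring, at -0.30 and -0.47, and without mouse 4.

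In PBS mice 3 of the 9 other genes were higher in RαTd/Td than in Rα+/+ mice and none was lower, where 8.09% of all genes were called higher. Klf10 was between 296 and 339 normalized counts in Rα+/+ and between 456 and 541 in RαTd/Td mice (limma adjusted p = 0.0286), Id1 between 42.8 and 49.8 and between 72.9 and 97.7 (limma adjusted p = 0.00847), and Id2 between 1065 and 1109 and between 1715 and 2013 (limma adjusted p = 0.0339). The median of the 9 was 0.64, against 0.10 for all genes tested. As with the 7 genes, all 3 calls were lost without mouse 4. Klf10 also lost its call without mouse 5 and Id2 without mouse 1, 2, 3, 5 or 10, and both lost it after centring, at 0.50 and 0.63. Between IL-4c genotypes none of these 9 was called and none had an unadjusted limma p of 0.05 or less. In the difference between responses none was called and 5 had an unadjusted limma p of 0.05 or less. Klf10 and Id1 were at -0.76 ± 0.18 and -0.82 ± 0.19 in the difference (limma adjusted p = 0.0569 for both).

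**Figure D5:**
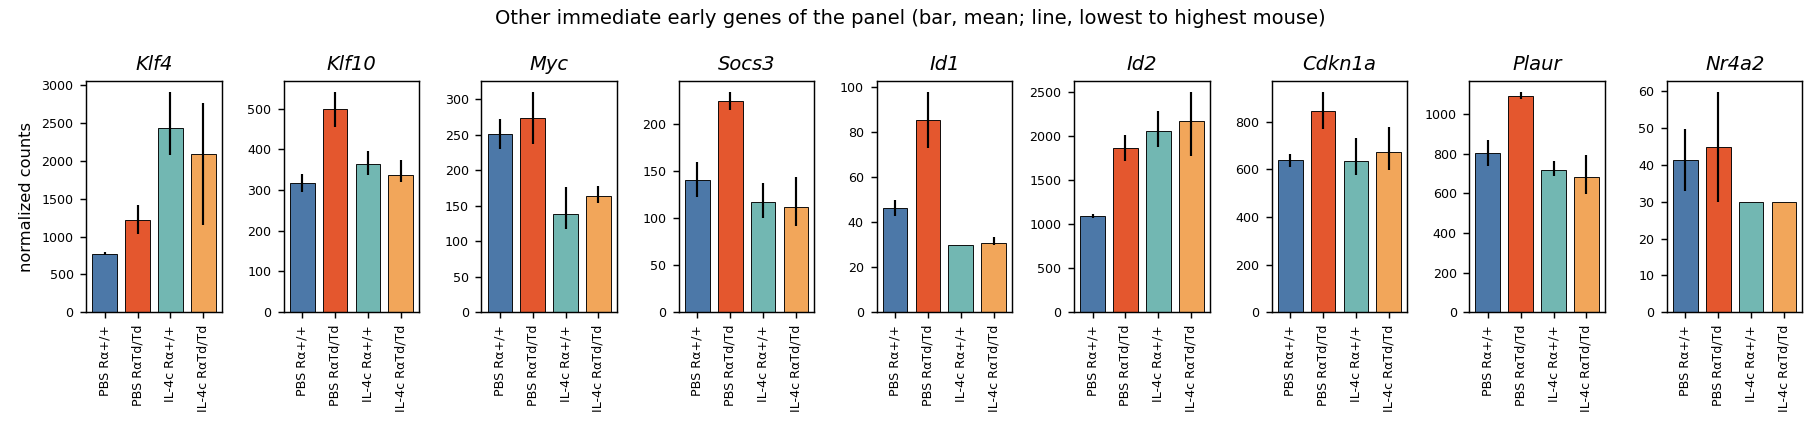
Normalized counts (linear axes starting at 0) of the 9 other immediate early genes tested, as group means with a line from the lowest to the highest mouse (n = 2, 2, 3 and 4). The 7 genes other than Klf4 and Id2 have their highest mean in PBS RαTd/Td mice, whereas Klf4 and Id2 are highest after IL-4c; values of 30 are at the floor.

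Basic leucine zipper factors related to Jun, Fosb and Atf3 were also tested. Cebpa, which governs myeloid differentiation, fell after IL-4c in Rα+/+ mice by 1.67 ± 0.28 on the log2 scale (limma adjusted p = 0.00101), and Cebpb fell by 0.65 ± 0.12 (limma adjusted p = 0.00191). Both were called lower in RαTd/Td mice too, and the Cebpb call in Rα+/+ mice was lost after centring, at -0.36. Batf, which pairs with Jun proteins at composite sites with interferon regulatory factors, rose in Rα+/+ mice from between 51.7 and 54.7 to between 90.5 and 111 normalized counts (limma adjusted p = 0.000632), a direction opposite to that of Jun. In RαTd/Td mice Batf was between 75.1 and 87.8 after PBS and between 71.3 and 87.2 after IL-4c. It was called higher in RαTd/Td mice after PBS (limma adjusted p = 0.0393), and its IL-4c response differed between genotypes by -0.94 ± 0.19 (limma adjusted p = 0.0345). Both of these calls were lost when any 1 of mice 2, 3, 4, 5, 6 and 10 was left out. In both genotypes Batf3 was called higher with IL-4c, but with 1 floor in all mice its differences were 0.10 and 0.16 and were not called.

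MAP kinases phosphorylate Jun and the factors that switch on immediate early genes. In this cascade Mapk14 (p38α) fell in Rα+/+ mice after IL-4c by 0.43 ± 0.11 on the log2 scale (limma adjusted p = 0.00796). In RαTd/Td mice Mapk14 and Map2k4 fell and Hras rose. By limma none of the 8 tested members was called in the 3 comparisons that involve genotype, where 1 (Map2k4, in the difference between responses) had an unadjusted p of 0.05 or less, and the Mapk14 calls, like that of Map2k4, were lost after centring. The dual-specificity phosphatases, which remove the activating phosphates from MAP kinases, were represented by 3 tested genes. Dusp1, itself an immediate early gene, fell by 2.42 ± 0.23 on the log2 scale in Rα+/+ mice (limma adjusted p = 3.46e-05). In RαTd/Td mice it fell by 2.19 ± 0.22 (limma adjusted p = 4.45e-05). Unlike Jun and Atf3, Dusp1 was not called between PBS genotypes, with 6455 and 9998 normalized counts in Rα+/+ and 9491 and 10184 in RαTd/Td mice. Dusp2 was at the floor in all mice but the 3 IL-4c Rα+/+ mice, where it was between 99.6 and 121 normalized counts.

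Among NF-κB subunits, inhibitors and kinases, the family of Nfkbia, 3 of 8 tested genes fell in Rα+/+ mice after IL-4c and 4 of 8 in RαTd/Td mice, and none rose, where 32.4% and 36.6% of all genes were called lower. In RαTd/Td mice the calls of Nfkb1, Bcl10 and Malt1 were lost without mouse 4 and under quantile normalization, and those of Nfkb1 and Malt1 also after centring. Nfkbiz, an atypical IκB that acts in the nucleus, fell by 1.99 ± 0.23 on the log2 scale in Rα+/+ mice (limma adjusted p = 0.000136), and in RαTd/Td mice it fell from between 499 and 614 to between 166 and 273 normalized counts (limma adjusted p = 0.000458). It was between 495 and 634 normalized counts in PBS mice of either genotype, and like Nfkbia overlapped between the PBS genotypes. Bcl10, an adaptor upstream of the IκB kinases, was called lower in both genotypes, in RαTd/Td mice with the limit just given.

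Of 14 tested NF-κB target genes, 10 fell and 2 rose in Rα+/+ mice, and 9 fell and 2 rose in RαTd/Td mice, where 32.4% and 36.6% of all genes were called lower and 13.9% and 15.3% higher. Without mouse 1 the calls of Cxcl1, Cd80, Cd86 and Irf1 in Rα+/+ mice were lost, and without mouse 4 those of Cxcl1, Cxcl2 and Cd80 in RαTd/Td mice. The Irf1 call in Rα+/+ mice was also lost without any 1 of mice 2 to 7 and 10. That of Cxcl2 in RαTd/Td mice was also lost without any 1 of mice 1, 2, 3, 6, 9, 10 and 12. Both of these calls, and those of Cd80 in both genotypes, were lost after centring and under quantile normalization. The inflammasome sensor Nlrp3 was between 174 and 315 normalized counts in PBS mice, at the floor in all 3 IL-4c Rα+/+ mice and between the floor and 39.9 in IL-4c RαTd/Td mice (limma adjusted p = 3.29e-06 and 1.93e-06). Il1a and Il6, cytokines of the same list, were called higher in both genotypes but were at the floor in all PBS mice. Il6 was between 157 and 204 normalized counts in IL-4c Rα+/+ mice (limma adjusted p = 0.000316) and between 81.5 and 217 in IL-4c RαTd/Td mice, and the Il1a call in RαTd/Td mice was lost with 1 floor in all mice (log2 difference 0.07). Birc3 was the 1 gene of the 14 called between PBS genotypes, higher in RαTd/Td mice by 0.69 ± 0.18 (limma adjusted p = 0.0436), a call that was lost when any 1 of mice 1 to 7, 10 and 12 was left out.

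Of 15 tested genes known as STAT6 targets of IL-4, 6 rose and 3 fell in Rα+/+ mice and 6 rose and 2 fell in RαTd/Td mice, where the shares of all genes were 13.9% and 32.4%, and 15.3% and 36.6%. Without mouse 1 or mouse 2 the calls of Ccl24 and Il4ra in Rα+/+ mice were lost, without mouse 2 or mouse 6 that of Irf4 in Rα+/+ mice, without mouse 3, 4 or 10 that of Mrc1 in RαTd/Td mice, and without mouse 4 that of Il4ra in RαTd/Td mice. Chil3, a chitinase-like protein, was at the floor in all PBS mice and called higher with IL-4c in both genotypes (limma adjusted p = 1.74e-09 and 1.33e-09). Sqstm1, the 1 tested gene of a heat shock and unfolded protein list, was called lower in RαTd/Td mice (limma adjusted p = 0.00642), a call that was lost after centring, at -0.25, under quantile normalization, at -0.22, and without mouse 3.

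The positive control probes, which measure the hybridization and count reaction and not the cells, had geometric means of 853 to 1021 counts in the 4 PBS mice and 301 to 623 in the 7 IL-4c mice, and so differed with treatment. The values analysed are scaled to housekeeping genes and not to these probes, and their part in the treatment differences was not tested. The highest negative control was 13 counts. The counts behind the 70 of 77 values of the 7 genes that were above the floor were between 44 and 1490, which gives a counting SD of 2.59% to 15.1% and covers counting error only.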

How the data were processed

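Sorted macrophages of 11 mice were measured, 1 sample each. Per the paper's methods, the authors lysed the cells, counted transcripts with the Nanostring panel and scaled the counts to the housekeeping genes Rpl19, Oaz1, Gusb and Eef1g. The deposited values are linear signal in normalized counts, in which low values were replaced by a floor of 30 and 14 control probes were left unscaled. In each mouse the gene values up to 1000 were whole multiples, within 0.1, of 1 factor between 0.75 and 1.88. Dividing by it gave total counts of 268858 to 574506 per mouse, and the lowest value above the floor was 30.5 to 56.3.

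Log2 of the value plus 1 was fitted with limma 3.58.1 in R 4.3.3 over all 11 mice, with a mean per group, for the 445 of 754 genes with a mean above 30. Genes at an adjusted p of 0.05 or less (Benjamini-Hochberg, per comparison) are called. The script was tested on simulated data. Per the paper's methods the measurement was made in 1 experiment. The 7 genes, the lists and the rules for named genes were chosen with earlier results of these data known. Genes of the lists were named where they were called, and the most similar genes were the 2 with the highest r over the mice. Those with the highest r of deviations from group means are also given. Promoters and gene positions came from RefSeq (GRCm38.p6). The alternatives were other filters, 10 added in place of 1, 1 floor for all mice, centring, quantile normalization, a trended robust fit, each mouse left out, the compared groups alone and the methods' t-test. Another IL-4c Rα+/+ mouse, which the authors left out, is not used here. Some genes of the lists are not reported here.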

Additional observations from a re-analysis of the deposited data

Results flagged for a closer look

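Fosb in the 4 IL-4c RαTd/Td mice had 1 mouse, at 44.8 normalized counts, apart from 3 at the floor, which gives a gap of 1 as a share of the group's range. With the other 3 at the floor, any value above it gives that gap. Ier3 in the same group had mouse 12 at 196 normalized counts and the other mice between 141 and 149, a gap of 0.839 of the range. A gap as large as that of Ier3 is passed by chance in about 1 group in 20.

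In the difference between responses, limma called 5 of the genes described, where 1.35% of all genes tested were called lower. They were Jun (log2 difference -1.22), Atf3 (-1.19), Batf (-0.94), Dusp2 (-1.84) and Retnla (-5.03). The calls of Jun, Atf3 and Batf were all lost without mouse 6, and each was also lost without certain other mice. Jun and Atf3 belong to the genes chosen from these values, so their differences are descriptions. Dusp2 and Retnla were at the floor in groups that enter the difference, and their sizes depend on the floor. Retnla is the gene deleted in RαTd/Td mice, so its difference follows from the design.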

How the results depend on the processing

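The log2 differences of the 7 genes did not reverse a call under any alternative run. Of 683 values, 643 moved by less than the spread between mice, or not at all, and 40 by more. Many of the 643 could not move, because the fit has a separate mean for each group. Other filters, the trended robust fit, the compared groups alone and leaving out a mouse of a group not compared all keep a log2 difference unchanged. The tally is therefore no measure of how firm the differences are. Of the counts of the 7 genes called, that for IL-4c in Rα+/+ mice was 6, and 3 by the methods' t-test after adjustment. The count for the PBS genotypes was 4. It was 2 without a filter, 2 after centring, 2 after quantile normalization, 0 with only the groups compared, 0 by the methods' t-test after adjustment, and 0 to 4 when each mouse was left out in turn. The count for the genotypes after IL-4c was 0, and 1 by the methods' t-test without adjustment or by limma without adjustment. The count for the difference between responses was 2, 1 after centring, 5 by limma without adjustment, and 0 to 2 when each mouse was left out. The unadjusted limma counts were chosen after seeing the data. With 2 mice per PBS group, leaving 1 out assumes that the other varies like the remaining groups. The counts of called genes in the lists gave 896 values, of which 761 were within 1.5 times the main count. The causes were not tested. edgeR and DESeq2 were not run, because the floor hides the low counts they need. No paired analysis was possible because the groups share no mouse numbers. The number of mice, 2 to 4 per group, limits the precision, and p-values measure the spread between mice of 1 experiment.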
